A study of Homo sapiens with 15 samples.

Results

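The messenger RNAs of 6 genes were followed in BEAS-2B cells exposed to fine particulate matter (PM2.5): the epithelial cytokine *TSLP*, interleukin 7 (*IL7*), their shared receptor subunit *IL7R*, and the colony-stimulating factors *CSF1*, *CSF2* and *CSF3*. They were the rows of the gene count table whose Ensembl identifiers carry these 6 symbols, 6 of 58219 genes, and each symbol matched 1 row. BEAS-2B is an immortalized human bronchial epithelial cell line, grown here without serum in a bronchial epithelial growth medium on plates coated with collagen, and messenger RNA was sequenced in 15 libraries. In the 24-h protocol, cells received fresh medium alone as vehicle control, or medium with PM2.5 from Beijing at 1 or 30 µg/cm2. In the daily protocol, cells were plated at a lower density and received each day fresh medium alone or with PM2.5 at 1 µg/cm2, with washing between treatments, and were harvested at day 7. The sample labels describe 7 daily treatments, whereas the methods of the study describe 6 with collection on day 7. Each of the 5 groups held 3 libraries, numbered 1 to 3 after independent experiments.

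TSLP is released by epithelial cells of the airway and is known for priming dendritic cells and innate lymphoid cells toward type 2 inflammation, as in asthma. It signals through a receptor made of CRLF2 and IL7R, and IL-7, a growth factor of lymphocytes, signals through IL7R and the common gamma chain IL2RG. CSF1 (M-CSF), CSF2 (GM-CSF) and CSF3 (G-CSF) drive the growth and survival of macrophages, of granulocytes and macrophages, and of neutrophils, through CSF1R, through CSF2RA with CSF2RB, and through CSF3R. The signals run through Janus kinases and STAT proteins, apart from CSF1R, which is itself a tyrosine kinase. The mRNAs of several of these cytokines carry AU-rich elements, which are bound by proteins that shorten or prolong the life of the message.

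Promoter sequences are shown for *TSLP*, which was called at 30 µg/cm2, and for *CSF2*, which had most of its reads there and a RefSeq promoter entry, to give the DNA just upstream of their transcription starts. They are the 250 bases before each RefSeq start on the plus strand of GRCh38.p14, in lower case, with matches to the searched motifs in capitals. RefSeq held 3 starts for *TSLP* (chr5:111069812-111070061, chr5:111071463-111071712 and chr5:111073124-111073373) and 1 for *CSF2* (chr5:132073539-132073788).
TSLP start 1: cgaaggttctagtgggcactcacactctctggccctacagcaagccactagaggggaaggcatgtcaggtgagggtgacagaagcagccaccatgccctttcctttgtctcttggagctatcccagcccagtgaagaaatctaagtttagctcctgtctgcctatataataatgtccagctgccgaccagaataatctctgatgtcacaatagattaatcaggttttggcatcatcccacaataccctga
TSLP start 2: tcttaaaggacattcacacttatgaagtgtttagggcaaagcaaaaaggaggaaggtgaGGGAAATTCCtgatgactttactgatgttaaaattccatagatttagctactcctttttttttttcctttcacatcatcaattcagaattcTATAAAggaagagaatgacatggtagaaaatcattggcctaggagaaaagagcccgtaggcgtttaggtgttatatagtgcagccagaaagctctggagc
TSLP start 3: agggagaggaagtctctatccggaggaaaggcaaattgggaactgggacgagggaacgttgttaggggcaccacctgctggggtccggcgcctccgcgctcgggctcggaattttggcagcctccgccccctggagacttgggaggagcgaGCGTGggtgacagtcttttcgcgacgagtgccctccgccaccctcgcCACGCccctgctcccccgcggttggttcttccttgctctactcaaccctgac
CSF2: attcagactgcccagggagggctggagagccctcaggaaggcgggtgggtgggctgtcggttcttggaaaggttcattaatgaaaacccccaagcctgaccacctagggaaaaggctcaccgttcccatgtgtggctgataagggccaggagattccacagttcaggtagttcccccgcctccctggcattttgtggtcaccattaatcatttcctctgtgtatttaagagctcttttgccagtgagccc

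Motifs were searched on both strands: AP-1 (TGANTCA), the NF-kappaB consensus, the xenobiotic response element of the aryl hydrocarbon receptor (GCGTG), the antioxidant response element bound by NRF2 (TGACNNNGC) and the TATA box (TATAAA). The second *TSLP* start had an NF-kappaB match, GGGAAATTCC, from 191 to 182 bases before the start. It also had a match to the letters TATAAA from 100 to 95 bases before the start, in a search with no limit on position. The third start had GCGTG on the plus strand from 99 to 95 bases before it, and the reverse complement from 52 to 48 bases. The windows of *TSLP* start 1 and of *CSF2* held no match to the 5 motifs. Only exact matches to these patterns were searched, so the lack of a match does not show that a binding site is absent. These motifs are common: NF-kappaB matched 9.96% of 35116 promoters of the same length, GCGTG 32.2%, the TATA box 10.7%, the antioxidant response element 10.9% and AP-1 6.57%. The matches describe letters in these windows, and the counts, made per gene, do not tell the 3 *TSLP* starts apart.

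The libraries held 21460981 to 34724765 counted reads, so that 3 reads, taken as the detection floor, stood for 0.0864 to 0.140 CPM (counts per 1000000 reads). Levels are given as CPM normalized by the trimmed mean of M values (TMM), and comparisons between genes as RPKM, which divides CPM by the exonic length in kilobases. The epithelial identity of the line was visible in its markers: KRT5, KRT7, KRT8, KRT18, KRT19, CDH1 and EPCAM summed to 3649 to 4164 CPM in the 24-h controls. That sum was 1559 to 2622 CPM at 30 µg/cm2, where 5 of the 7 markers fell (edgeR), including *KRT5* by -2.46 on the log2 scale, beside 8.07% of all tested genes called in either direction. It was 2948 to 3515 CPM in the daily controls and 1934 to 2208 CPM with daily PM2.5. There 1 of the 7 was called (*KRT5*, -0.93, adjusted p = 0.0477 by edgeR), beside 0.227% of tested genes. *EPCAM* had a fitted value of 0.11 and the others were negative. The sum hides opposite changes between the controls, where 21.9% of tested genes were called. In the daily controls 3 markers (*KRT19*, *CDH1*, *EPCAM*) were called higher and 3 (*KRT7*, *KRT8*, *KRT18*) lower. Of 7 leukocyte markers, 5 were at 3 reads or fewer in every control library of the 24-h protocol, and *LYZ* was at 0 in all 15 libraries. They summed to 4.6 to 23.7 CPM over all groups. By group means this came mostly from *CD14* (7.71 to 17.6 CPM), beside 0.0212 to 1.43 CPM for *ITGAM*. Single libraries at 30 µg/cm2 varied, with *CD14* at 2.3 to 17.9 CPM and *ITGAM* at 0.243 to 2.43 CPM. The 3 mast cell markers summed to at most 0.421 CPM and the 3 endothelial markers to at most 0.345 CPM, and 5 fibroblast markers to 42.5 to 110 CPM. The part of the changes in epithelial markers in the results below was not tested. In bulk RNA, fewer cells of a type and less RNA per cell cannot be told apart. Experiment 2 of the 24-h protocol stood apart from experiments 1 and 3 for several of the genes, so results are also given without its 3 libraries. That choice was made on the same genes. Calls without experiment 2 therefore describe the remaining libraries and are not separate support.

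At the gene level, *TSLP* rose and *CSF2* became detectable at 30 µg/cm2, *CSF3* was higher in that group than in any other, and *IL7R* was highest in the 24-h controls. A gene was called at an adjusted p below 0.05 and a log2 fold-change of at least 0.6 in edgeR's quasi-likelihood test over 17599 tested genes, and 5 of the 6 genes entered that test. *CSF2* had too few reads to pass the filter on low counts. At 30 µg/cm2 against control, 1 of the 5 (*TSLP*) was called, where 8.07% of tested genes were. At 1 µg/cm2 for 24 h, 0 of the 5 were called by edgeR or by DESeq2, beside 0.0625% of tested genes, and only *IL7R* had an unadjusted p below 0.05 (0.0103). Between 30 and 1 µg/cm2, *TSLP* and *CSF3* were called, 2 of the 5, where 7.84% of tested genes were. With daily PM2.5, 0 of the 5 were called by edgeR, beside 0.227% of tested genes. There *TSLP* had an unadjusted p of 0.00607 in edgeR and was called by DESeq2, which called 1 of the 5. The daily and the 24-h responses to 1 µg/cm2 differed for 0 of the 5 genes and for 0% of tested genes by edgeR, with no unadjusted p below 0.05 among the 5 and no call by DESeq2. Between the controls of both protocols, 3 of the 5 were called, *TSLP* higher and *IL7R* and *CSF3* lower in the daily protocol, where 21.9% of tested genes were called. The comparisons of 30 and of 1 µg/cm2 with control share the same 3 control libraries.

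The median log2 fold-change of the 5 tested genes was 0.22 at 30 µg/cm2, -0.28 at 1 µg/cm2 and -0.17 with daily PM2.5, and -0.36 between the controls. Over all tested genes these medians were 0.028, 0.012, 0.009 and 0.017. In the 30 µg/cm2 comparison the fitted values of the 5 genes ran from -1.46 for *IL7R* to 2.07 for *CSF3*.

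**Figure D1:**
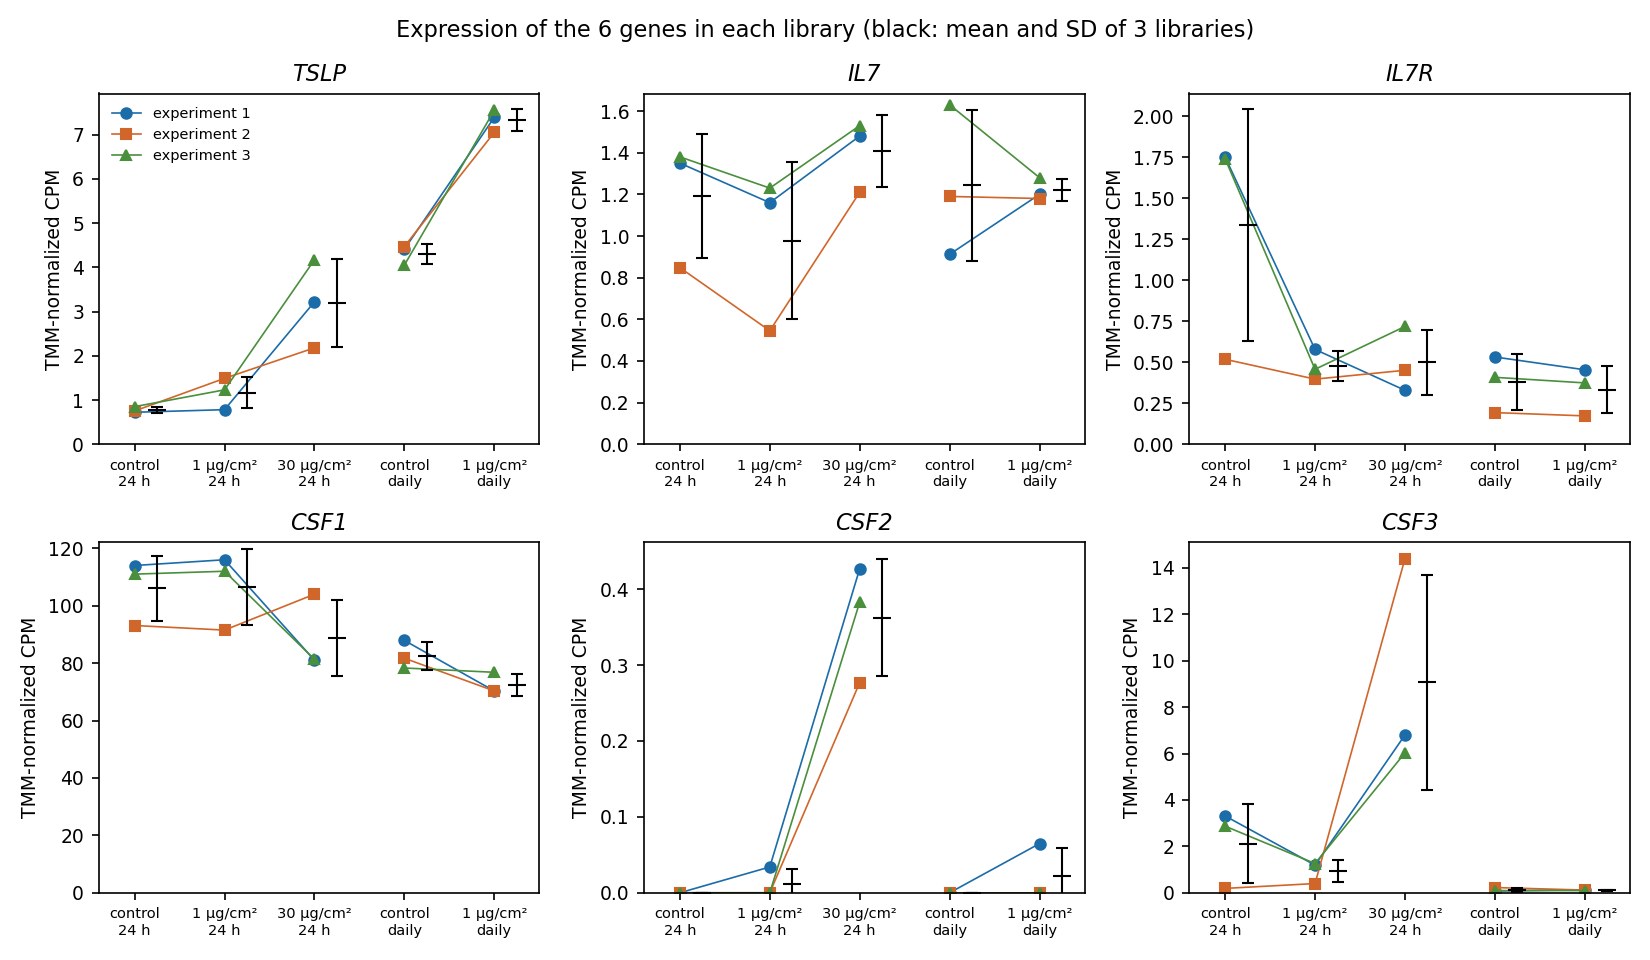
TMM-normalized CPM (y axis, linear, from 0) of the 6 genes in each of the 15 libraries, by group (x axis), with lines joining libraries of the same experiment number within a protocol and black bars for the mean and SD of 3 libraries. *TSLP* lies at 2.18 CPM or more in the 30 µg/cm2 libraries and at 1.49 CPM or less in the other 24-h libraries, and *CSF2* has a visible level in the 3 libraries at 30 µg/cm2.

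*TSLP* (ENSG00000145777.14) lies on the plus strand of chromosome 5 at 111070062 to 111078024 in GRCh38, and its exons cover 4282 bases. In the 24-h controls it had 0.723, 0.753 and 0.850 CPM in experiments 1, 2 and 3, from 16 to 24 reads. The libraries at 1 µg/cm2 for 24 h had 0.782, 1.49 and 1.23 CPM. At 30 µg/cm2 it had 3.22, 2.18 and 4.17 CPM, from 63 to 98 reads. The 30 µg/cm2 libraries all lay above the control and the 1 µg/cm2 libraries, while the latter overlapped the control range. The mean went from 0.775 ± 0.0667 CPM (SD, n = 3) in controls to 1.17 ± 0.357 at 1 µg/cm2 and 3.19 ± 0.991 at 30 µg/cm2.

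The log2 fold-change of *TSLP* at 30 µg/cm2 was 2.03 (SE 0.268, adjusted p = 0.000338 by edgeR), and 178 of the 17599 tested genes had a larger one. Within experiments 1, 2 and 3 the log2 difference was 2.16, 1.54 and 2.29, so the rise was present in each. The authors had picked this dose as their highest in part because *TSLP*, with *IL6* and *TNF*, increased at it. Against 1 µg/cm2, the 30 µg/cm2 level was higher by 1.46 on the log2 scale (SE 0.259, adjusted p = 0.00328 by edgeR). That call was lost when only the 6 libraries of the comparison entered the fit (log2 fold-change 1.43, adjusted p = 0.144 by edgeR). For 1 µg/cm2 against control the fitted value was 0.57 (SE 0.278, adjusted p = 1 by edgeR), with differences of 0.11, 0.98 and 0.53 in the 3 experiments. A rise of *TSLP* after a single low dose was therefore not separated from the spread between libraries.

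In the daily protocol *TSLP* had higher group means than in any 24-h group, though the daily controls overlapped the 30 µg/cm2 libraries. The control libraries had 4.41, 4.47 and 4.05 CPM, from 116 to 139 reads, and the PM2.5 libraries had 7.39, 7.05 and 7.55 CPM, from 228 to 244 reads. All exposed libraries lay above all controls, with means of 4.31 ± 0.228 and 7.33 ± 0.256 CPM (SD, n = 3). On the log2 scale the exposed cells were higher by 0.77 (SE 0.237, adjusted p = 0.200 by edgeR), close to the within-experiment differences of 0.74, 0.66 and 0.90. With the experiment number as a block, the same value of 0.77 was called (SE 0.196, adjusted p = 0.0258 by edgeR). It was also called without the 24-h libraries of experiment 2 (0.77, adjusted p = 0.00195 by edgeR), which take no part in the comparison itself but enter the shared estimate of the spread. The difference between the daily and the 24-h response to 1 µg/cm2 was 0.19 (SE 0.369, adjusted p = 0.955 by edgeR), so the *TSLP* responses to single and repeated low doses were not shown to differ.

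The untreated cells of the daily protocol had more *TSLP* than those of the 24-h protocol, by 2.47 on the log2 scale (SE 0.267, adjusted p = 3.26e-05 by edgeR), with all 9 pairs of libraries in that direction. Time in culture, plating density, washing and medium changes all differ between the protocols, and their parts cannot be told apart. In order of mean level, the 24-h controls were lowest, followed by 1 µg/cm2 and 30 µg/cm2 for 24 h, the daily controls and daily PM2.5. Neighbours in this order overlapped between the 24-h controls and 1 µg/cm2, and between 30 µg/cm2 and the daily controls.

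*IL7* (ENSG00000104432.13, minus strand, chromosome 8, 78675743 to 78805523, 3392 exonic bases) stayed between 0.545 and 1.63 CPM in all libraries. It had 1.35, 0.848 and 1.38 CPM in the 24-h controls, 1.16, 0.545 and 1.23 at 1 µg/cm2, and 1.48, 1.21 and 1.53 at 30 µg/cm2. The daily controls had 0.912, 1.19 and 1.63 CPM and the daily PM2.5 libraries 1.20, 1.18 and 1.28. Every pair of neighbouring groups overlapped, and experiment 2 was lowest in each 24-h group. The log2 fold-change was 0.22 at 30 µg/cm2 (SE 0.315, adjusted p = 0.738 by edgeR), -0.28 at 1 µg/cm2 (SE 0.321) and -0.03 with daily PM2.5. Exons of *IL7* overlap those of *ZC2HC1A* on the other strand, which had 9378 reads over the 15 libraries. The strand setting of the counting is not given in the sources used here, so reads of this pair may not have been told apart. Other genes described in this report share this limit. Among them are *CISH*, with *MAPKAPK3* (25538 reads), and *STAT6*, with *LRP1* (81207 reads) and *NAB2* (17145 reads).

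*CSF1* (ENSG00000184371.13, plus strand, chromosome 1, 109910242 to 109930992, 5418 exonic bases) was by far the most abundant of the 6, at 13.4 to 19.6 RPKM over the group means, beside at most 4.09 RPKM for any other of them in any group. It had 114, 93.1 and 111 CPM in the 24-h controls, 116, 91.5 and 112 at 1 µg/cm2, and 81.0, 104 and 81.3 at 30 µg/cm2. Experiments 1 and 3 were lower at 30 µg/cm2, by -0.50 and -0.45 on the log2 scale, whereas experiment 2 was higher by 0.16, and the ranges overlapped. The fitted log2 fold-change was -0.26 (SE 0.133, adjusted p = 0.258 by edgeR). Without experiment 2 at 24 h it was -0.48 (adjusted p = 0.000149 by edgeR), under the size of 0.6 that a call needs. The low dose gave 0.00 (SE 0.132), and the differences within the 3 experiments ran from -0.03 to 0.02.

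In the daily protocol, *CSF1* had 87.9, 81.7 and 78.3 CPM in controls and 70.3, 70.3 and 76.8 CPM with PM2.5. All 3 exposed libraries lay below all 3 controls, with within-experiment differences of -0.32, -0.22 and -0.03. The fitted value was -0.19 (SE 0.133, adjusted p = 0.621 by edgeR), which is under the size needed for a call. The daily controls were lower than the 24-h controls without overlap, by -0.36 (SE 0.133, adjusted p = 0.0543 by edgeR).

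*CSF2* (ENSG00000164400.5, plus strand, chromosome 5, 132073790 to 132076170, 787 exonic bases) was detected above the floor in 1 group. It had 13, 8 and 8 reads in experiments 1, 2 and 3 at 30 µg/cm2, that is 0.427, 0.277 and 0.383 CPM. The 24-h controls had 0, 0 and 0 reads, the 1 µg/cm2 libraries 1, 0 and 0, the daily controls 0, 0 and 0 and the daily PM2.5 libraries 2, 0 and 0. Every 30 µg/cm2 library thus lay above every other library. The 29 reads at 30 µg/cm2 have an exact 95% Poisson interval of 19.4 to 41.6, and the 0 reads of the 24-h controls one of 0 to 3.69, intervals that cover counting error alone.

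Against the floor of 3 reads per library, the mean of 0.363 ± 0.0770 CPM (SD, n = 3) at 30 µg/cm2 was at least 3.22-fold higher than the 24-h controls. Against 1 µg/cm2, with 1 read in total, it was at least 3.06-fold higher by the same floor. With no filter on low counts and 36501 genes tested, *CSF2* was called in both comparisons (adjusted p = 0.00530 against control and 0.0256 against 1 µg/cm2, edgeR). At 787 exonic bases *CSF2* is the shortest of the 6 transcripts, and per length its mean of 0.461 RPKM at 30 µg/cm2 was below the 0.745 RPKM of *TSLP* in the same libraries.

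*CSF3* (ENSG00000108342.12, plus strand, chromosome 17, 40015361 to 40017813, 2220 exonic bases) ranged from 0.076 to 14.4 CPM over the 15 libraries. At 30 µg/cm2 it had 6.80, 14.4 and 6.03 CPM in experiments 1, 2 and 3, from 126 to 415 reads. The 24-h controls had 3.31, 0.188 and 2.87 CPM, where experiment 2 held 4 reads beside 110 and 81 in the others. The 1 µg/cm2 libraries had 1.19, 0.397 and 1.26 CPM. The 30 µg/cm2 libraries lay above all control and 1 µg/cm2 libraries, while those of 1 µg/cm2 and control overlapped. Experiment 2 was lowest in the control and 1 µg/cm2 groups and highest at 30 µg/cm2.

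The log2 fold-change of *CSF3* at 30 µg/cm2 against control was 2.07 (SE 0.633, adjusted p = 0.0545 by edgeR) and missed the threshold. Within experiments 1 and 3 the difference was 1.04 and 1.07, and in experiment 2 it was 6.26. Several other fits called it: DESeq2 (2.07, adjusted p = 0.0232), the current mode of edgeR (2.03, adjusted p = 0.0179) and the fit with no filter on low counts (2.06, adjusted p = 0.000937 by edgeR). The value was also called at 2.14 with the experiment block (adjusted p = 0.0152 by edgeR), and at 1.05 without experiment 2 at 24 h (adjusted p = 0.00194 by edgeR). Other edgeR fits did not call it. These were RLE size factors (adjusted p = 0.0553), a filter of at least 1 CPM in 3 libraries (0.0504) and only the 6 libraries of the comparison (0.236). Against 1 µg/cm2 the level was higher by 3.22 (SE 0.680, adjusted p = 0.00875 by edgeR), with differences of 2.52, 5.18 and 2.25 in the 3 experiments. That call was lost with only the 6 libraries of the comparison in the fit (3.20, adjusted p = 0.0547 by edgeR).

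After the low dose, *CSF3* was lower than control in experiments 1 and 3, by -1.48 and -1.18, and higher in experiment 2, by 1.07. The fitted value was -1.15 (SE 0.667, adjusted p = 1 by edgeR). With the experiment block it was -1.14 and was not called (adjusted p = 0.693 by edgeR), and without the 24-h libraries of experiment 2 it was -1.32 and was called (adjusted p = 0.00600 by edgeR). In experiments 1 and 3, *CSF3* was thus lower at the low dose and higher at the high dose than in control cells. Experiment 2 was higher at both doses, and both comparisons share their controls. A fall at the low dose was not established over all experiments.

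In the daily protocol *CSF3* was near the floor, with 2, 7 and 3 reads in controls and 4, 4 and 3 with PM2.5. Means were 0.132 ± 0.0813 and 0.113 ± 0.0182 CPM (SD, n = 3), and a difference between them was not detectable at this depth. The daily controls were lower than the 24-h controls by -3.97 (SE 0.839, adjusted p = 0.00323 by edgeR), although the control of experiment 2 at 24 h, at 0.188 CPM, lay within the range of the daily controls.

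**Figure D2:**
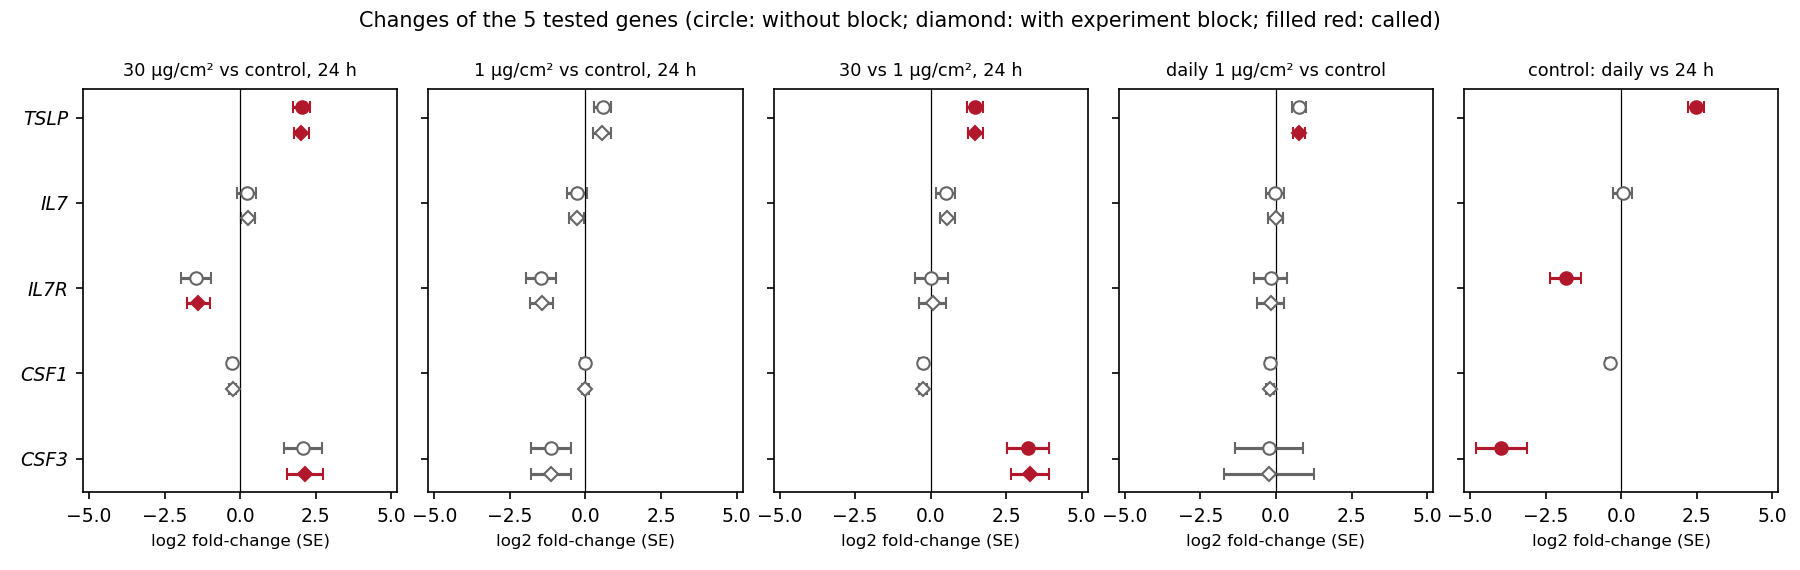
Fitted log2 fold-changes (x axis) with their SE for the 5 tested genes (y axis) in 5 comparisons, without the experiment block (circles) and with it (diamonds), filled in red where called. *TSLP* is called at 30 µg/cm2 with either fit and with daily PM2.5 in the blocked fit, and the change of control protocol moves *TSLP* up by 2.47 and *CSF3* by -3.97.

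*IL7R* (ENSG00000168685.14, plus strand, chromosome 5, 35852695 to 35879603, 6060 exonic bases) encodes the receptor subunit shared by IL-7 and TSLP. It had 1.75, 0.518 and 1.74 CPM in the 24-h controls, from 58, 11 and 49 reads. It had 0.578, 0.397 and 0.457 CPM at 1 µg/cm2 and 0.329, 0.451 and 0.718 CPM at 30 µg/cm2. The controls of experiments 1 and 3 stood above all other libraries, and that of experiment 2 lay among the exposed ones, so that the groups overlapped.

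At 30 µg/cm2 the log2 fold-change of *IL7R* was -1.46 (SE 0.499, adjusted p = 0.0836 by edgeR), with differences of -2.41, -0.20 and -1.27 within the experiments. It was called with the experiment block (-1.39, adjusted p = 0.0154 by edgeR) and without experiment 2 at 24 h (-1.80, adjusted p = 0.00578 by edgeR). DESeq2 and the current mode of edgeR (-1.53, adjusted p = 0.046) called it as well. Other edgeR fits did not: RLE size factors (adjusted p = 0.0812), no filter on low counts (0.0761) and only the libraries of the comparison (0.243). The low dose gave -1.48 (SE 0.499, adjusted p = 1 by edgeR), with differences of -1.60, -0.39 and -1.93. It was not called with the block (-1.45, adjusted p = 0.193 by edgeR) but was without experiment 2 at 24 h (-1.73, adjusted p = 0.0334 by edgeR). The fitted difference between the 2 doses was 0.02 (SE 0.537, adjusted p = 0.988 by edgeR).

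With the daily protocol *IL7R* had 0.532, 0.193 and 0.408 CPM in controls and 0.454, 0.173 and 0.374 CPM with PM2.5, from 6 to 14 reads per library. The differences of -0.23, -0.15 and -0.12 within experiments were small beside the SE of 0.546 of the fitted value of -0.17. The daily controls were below the 24-h controls by -1.84 (SE 0.506, adjusted p = 0.0147 by edgeR). That call was lost without control library 1 or 3 of the 24-h protocol (-1.60 and -1.62, adjusted p = 0.0558 and 0.0616 by edgeR) and without control library 2 of the daily protocol (-1.54, adjusted p = 0.0657 by edgeR).

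**Figure D3:**
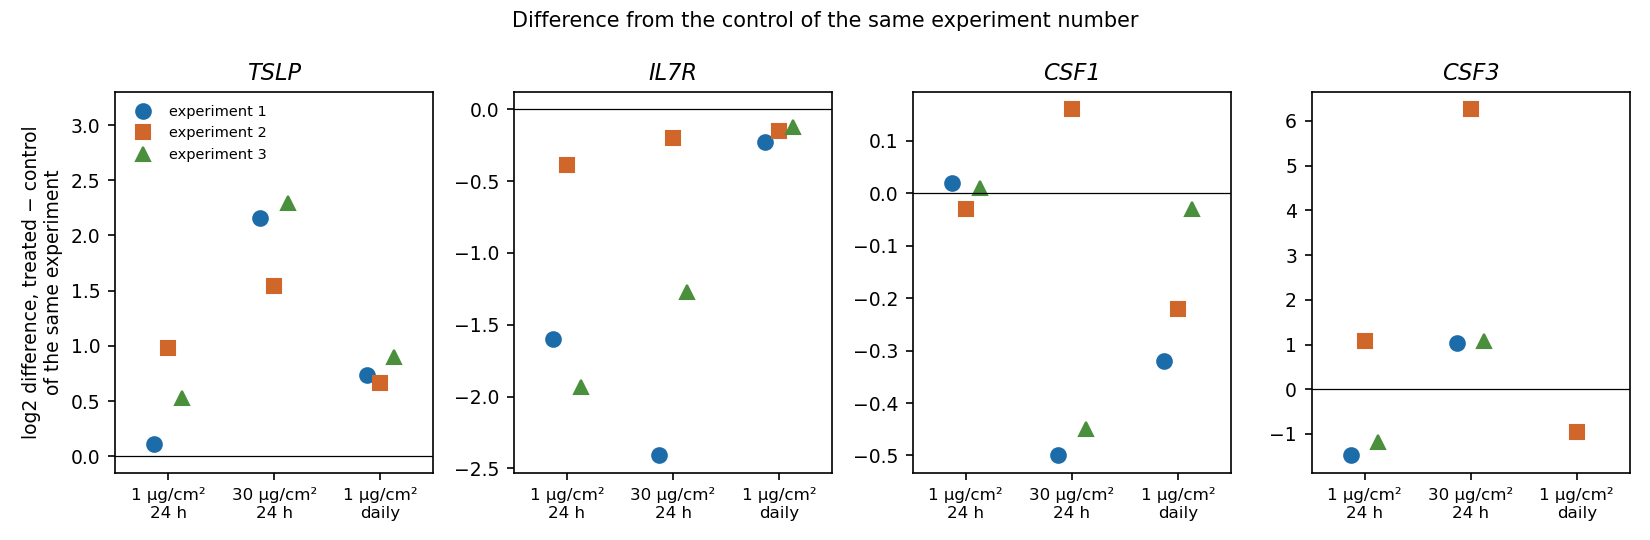
Log2 difference between each exposed library and the control of the same experiment number (y axis) for *TSLP*, *IL7R*, *CSF1* and *CSF3* at 1 and 30 µg/cm2 for 24 h and with daily 1 µg/cm2 (x axis). *TSLP* is positive in all 9 pairs, experiment 2 (squares) departs from experiments 1 and 3 for *CSF3* and *IL7R* at 24 h, and 2 daily *CSF3* points are absent because a library of the pair had 3 reads or fewer.

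Of the 6 receptor chains that complete these signalling pairs, 2 passed the filter. *CSF1R*, the kinase receptor of CSF1, had group means of 0.215 to 0.475 CPM in the 24-h protocol. It had 0.957 ± 0.277 CPM (SD, n = 3) in the daily controls, higher than in the 24-h controls by 1.55 (SE 0.554, adjusted p = 0.0498 by edgeR), a call that was lost with other size factors (1.53, adjusted p = 0.0526 by edgeR) and without any of 5 of the 6 control libraries. *CSF3R*, the receptor of CSF3, had 0.452, 0.531 and 6.45 CPM in the 24-h controls, 1.05, 1.84 and 7.04 at 1 µg/cm2, and 0, 0.0986 and 0.902 at 30 µg/cm2, each in rising order. The control and the 30 µg/cm2 ranges overlapped, and the fitted value of -2.77 (SE 1.14) had an adjusted p of 0.154 by edgeR, beside -2.73 with the experiment block, which was called (adjusted p = 0.000761 by edgeR). Against 1 µg/cm2 these values were -3.21 (adjusted p = 0.0951) and, with the block, -3.60 (adjusted p = 9.17e-05), both by edgeR. The 0 and 0.0986 CPM at 30 µg/cm2 lie at or under the detection floor, which limits both blocked calls. In each 24-h group the highest *CSF3R* value was that of experiment 2. *IL2RG* and *CSF2RB* were at group means of at most 0.0823 and 0.152 CPM. *CRLF2* and *CSF2RA* were listed at 0 in all libraries and are not a measure of their expression here. Both lie in the pseudoautosomal region, where 44 of 45 genes were at 0 in every library, among them the widely expressed *CD99* and *SLC25A6*.

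Among 13 related ligands, 3 were tested (*IL15*, *KITLG* and *FLT3LG*), and none of the 3 was called in an exposure comparison. Of all tested genes, 8.07% were called at 30 µg/cm2, 0.0625% at 1 µg/cm2, 7.84% between these doses and 0.227% with daily PM2.5. *IL15*, a relative of IL-7 that signals through the same common gamma chain, had 4.13 ± 1.14 CPM (SD, n = 3) in the 24-h and 11.9 ± 1.14 CPM in the daily controls, and the latter were higher by 1.54 on the log2 scale (SE 0.267, adjusted p = 0.000931 by edgeR). *KITLG*, the stem cell factor, had a log2 fold-change of -0.77 at 30 µg/cm2 (adjusted p = 0.0565 by edgeR), which was called with the experiment block (-0.75, adjusted p = 0.0189 by edgeR). *IL33*, another epithelial alarmin, stayed at group means of 0.172 to 0.316 CPM, and *IL2*, *IL9*, *IL21* and *IL25* had no read in any library.

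The 8 Janus kinase and STAT genes described here (*JAK1*, *JAK2*, *JAK3*, *TYK2*, *STAT3*, *STAT5A*, *STAT5B*, *STAT6*) were tested. None of the 8 was called at either dose or with daily PM2.5, with medians of 0.07, 0.00 and -0.24 at 30 µg/cm2, 1 µg/cm2 and daily. The shares of all tested genes called there were 8.07%, 0.0625% and 0.227%, so few or no calls among 8 genes do not set them apart. *STAT5A* fell with daily PM2.5 in the fit with the experiment block (-0.63, adjusted p = 0.0147 by edgeR). Between the controls, *STAT5B* (0.81) was higher and *STAT6* (-0.66), the STAT of interleukins 4 and 13, lower in the daily protocol.

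Of 6 feedback inhibitors, none was called at 30 µg/cm2 against control, where 8.07% of tested genes were. *SOCS2*, a target of STAT5, was higher at 30 than at 1 µg/cm2 by 0.97 (SE 0.235, adjusted p = 0.0182 by edgeR). Its mean was 4.01 ± 0.948 CPM (SD, n = 3) in controls, 3.34 ± 0.653 at 1 µg/cm2 and 6.58 ± 1.19 at 30 µg/cm2. The *SOCS2* call was lost without any of 4 of the 6 libraries of this comparison, with adjusted p between 0.0504 and 0.0817 in edgeR, and with only those 6 libraries in the fit (0.95, adjusted p = 0.156 by edgeR). With the experiment block *SOCS2* was also called against control (0.72, adjusted p = 0.00391 by edgeR) and with daily PM2.5 (0.74, adjusted p = 0.0232 by edgeR), and *SOCS3* was called as lower at 30 than at 1 µg/cm2 (-0.76, adjusted p = 0.00531 by edgeR). In the same fit *CISH*, another STAT5 target, fell with daily PM2.5 (-0.66, adjusted p = 0.0290 by edgeR). Between the controls, where 21.9% of tested genes were called, *SOCS2* was lower in the daily protocol (-1.64, adjusted p = 0.000353 by edgeR). *CISH* was higher there (1.33, adjusted p = 0.000864 by edgeR), and the others of the 6 were not called.

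Of 8 mRNA-binding proteins, which bind AU-rich elements apart from *ZC3H12A*, 2 were called at 30 µg/cm2, in opposite directions, where 8.07% of tested genes were. *ZC3H12A*, an RNase that recognizes stem-loops in cytokine mRNAs and degrades them, rose by 0.76 on the log2 scale (SE 0.129, adjusted p = 0.00207 by edgeR), with means of 17.0 ± 0.893 in controls and 28.7 ± 3.17 CPM when exposed (SD, n = 3). It had 16.4, 16.5 and 18 CPM in controls and 25.1, 29.9 and 31.1 CPM at 30 µg/cm2, in rising order, without overlap. The call was lost with only the 6 libraries of the comparison in the fit (0.75, adjusted p = 0.0639 by edgeR). *ZFP36L2*, which promotes decay of AU-rich mRNAs, fell by 1.26 on the log2 scale (SE 0.171, adjusted p = 0.000401 by edgeR), with means of 224 ± 54.7 in controls and 93.5 ± 5.85 CPM when exposed (SD, n = 3). Its relative *ZFP36L1* was higher at 30 than at 1 µg/cm2 by 1.57, a call that was lost without library 1 or 3 of the 30 µg/cm2 group (1.36 and 1.37, adjusted p = 0.0693 and 0.0689 by edgeR). In the same comparison *ZC3H12A* was higher by 0.91 and *ZFP36L2* differed by -0.88. With only the 6 libraries of this comparison in the fit, *ZFP36L1* (1.54, adjusted p = 0.152), *ZC3H12A* (0.89, adjusted p = 0.0686) and *ZFP36L2* (-0.90, adjusted p = 0.0657) all lost their call in edgeR. With the experiment block *ZFP36* was called there as well (0.67, adjusted p = 0.000532 by edgeR). None of the 8 was called with daily PM2.5, where 0.227% of tested genes were. *ZFP36L2* was called there with the experiment block (-0.63, adjusted p = 0.0148 by edgeR). With that block *ZFP36L1* was also called at 30 µg/cm2 against control (0.98, adjusted p = 5.88e-05 by edgeR). In the comparison of controls, where 21.9% of tested genes were called, 3 of the 8 were lower in the daily than in the 24-h controls: *ZFP36L2* (-1.02), *ZC3H12A* (-0.70) and *HNRNPD* (-1.08).

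**Figure D4:**
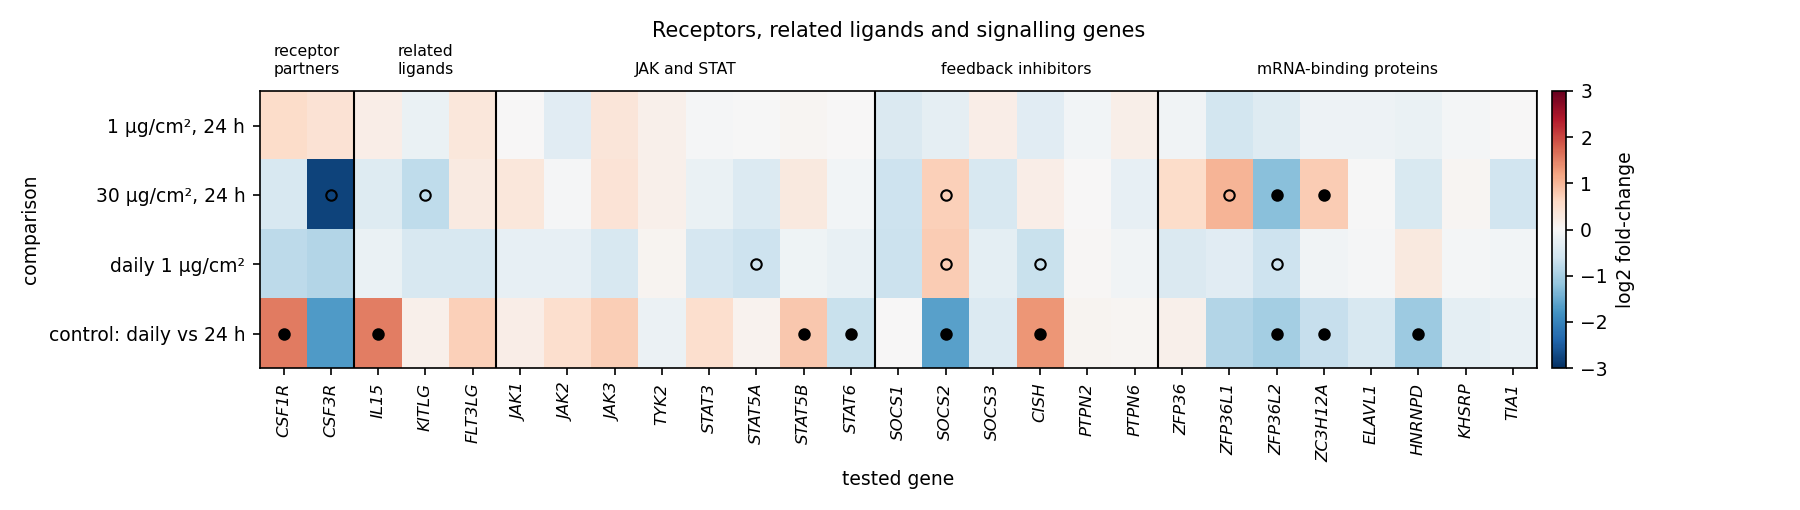
Fitted log2 fold-changes (colour, from -3 to 3) of the tested receptor, ligand, signalling and mRNA-binding genes (x axis) in 4 comparisons (y axis). Filled circles mark calls, and open circles mark calls made only with the experiment block, which could not be fitted for the comparison of controls. The row of 1 µg/cm2 for 24 h holds no circle.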

How the data were processed

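Poly(A)-selected RNA of 15 BEAS-2B libraries was sequenced as single-end 50-base reads. Reads were aligned with STAR 2.5.3 to GRCh38 and counted per gene with featureCounts by the authors, per the methods of the study. The deposited file holds these raw counts for 58219 genes, not normalized. The submitters' processing notes name hg19, whereas the coordinates in the table are those of GRCh38. The annotation release and the strand setting are not given in the sources used here.

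Identifiers were matched to symbols for 57392 genes. Genes with low counts were removed (filterByExpr by group), which left 17599, and counts were normalized by TMM and tested with the quasi-likelihood test of edgeR 4.0.16 (legacy mode, R 4.3.3) in 1 fit of all 5 groups, with Benjamini-Hochberg adjustment over all tested genes. Genes were called at an adjusted p below 0.05 with a change of 0.6 or more in either direction on the log2 scale. SE was taken as the fold-change divided by the root of F. RPKM used the exonic lengths of the table. The named genes were the 6 genes, the called genes and the receptors and ligands of preset lists, and the 3 genes most correlated with each gene of at least 1 mean CPM. An item of the preset lists is not reported here. The 6 genes, the lists and the tests were chosen with earlier results of these data known.

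The number of a library marks the experimental batch per the labels and series record, and so pairs libraries within a protocol. Deviations from the group means correlated at 0.201 to 0.721 between same-numbered libraries of the 24-h protocol and at -0.683 to 0.453 between others. In the daily protocol these were 0.121 to 0.181 and -0.127 to -0.034. Alternatives were the experiment block, DESeq2 1.42.0, RLE size factors, other filters, the current mode of edgeR, the libraries of the comparison alone, the 24-h protocol without experiment 2, and leaving out each library. On simulated counts for the 30 µg/cm2 comparison (17599 genes, 200 changed), 62 of 100 genes changed by 1 on the log2 scale and 91 of 100 changed by 2 were called, with 9 false calls. The changed genes were drawn from those with a mean above 1 CPM, and libraries were simulated as independent, with no experiment effect. *IL7R* and *CSF2*, with means of 0.604 and 0.0791 CPM, are not covered by these rates. Promoter sequences came from RefSeq (GRCh38.p14), where *TSLP*, *IL7R* and *CSF2* had entries. Intervals and floors cover counting error only.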

Additional observations from a re-analysis of the deposited data

How the results depend on the processing

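No called result reversed its direction in the alternatives that were run. Of the 6 genes at 30 µg/cm2 against control, 1 was called in the fit as reported and 3 with the replicate block, without a filter on low counts, in the current mode of edgeR, without experiment 2 at 24 h, or with DESeq2. The 3 were *TSLP*, *IL7R* and *CSF3*, or *TSLP*, *CSF2* and *CSF3* without the filter. The number ran from 1 to 3 when single libraries were left out, and was 3 without control library 2 of the 24-h protocol, where *IL7R* (-1.82) and *CSF3* (1.55) were called. At 1 µg/cm2 it was 0, and 2 without experiment 2 at 24 h (0 to 0 with single libraries left out). Between the doses it was 2, 3 without a filter on low counts (with *CSF2*), and 0 with only the libraries of the comparison in the fit (2 to 2). With daily PM2.5 it was 0, and 1 with the replicate block, with only the libraries of the comparison, without experiment 2 at 24 h, or with DESeq2 (0 to 0). For the difference of the responses it was 0 to 0, and between the controls 2 to 3. The replicate block changed no other call of the 6 genes, and the controls of the protocols could not be blocked. The cause of these differences was not tested.

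The *TSLP* fold-change at 30 µg/cm2 stayed called throughout, at 1.80 to 2.23 with single libraries left out (adjusted p from 6.13e-05 to 0.00296, edgeR). Over all genes, calls at 30 µg/cm2 numbered 1420, beside 2681 with the block, 3389 without experiment 2 at 24 h and 344 with only the libraries of the comparison. At 1 µg/cm2 they numbered 11, beside 74 and 378 in the former alternatives, and with daily PM2.5 40, beside 773, 1074, 1044 with only the libraries of the comparison and 250 with DESeq2. The called genes of the receptor, ligand and signalling lists kept their call in 183 repeated tests and lost it in 17, with no change of direction. Depth limits *CSF2*, *IL7R* and the daily *CSF3* values, which rest on 0 to 58 reads per library. It also limits *CSF3R* at 30 µg/cm2, which had 0 to 26 reads per library. The same holds for *IL7*, with 11 to 52 reads per library, and for *TSLP* in the 24-h control and 1 µg/cm2 libraries, with 16 to 35. In experiment 2, *CSF3* had 4 reads in the 24-h control and 8 at 1 µg/cm2.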

Other observations

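The genes whose pattern was most like each of the 6 were named by Pearson's r of log2 CPM over the 15 libraries, among 13871 genes with a mean of at least 1 CPM. The 15 points share batches, controls and sequencing depth, so these are descriptions. *TSLP* was followed most closely by *XPOT*, which exports transfer RNA from the nucleus (r = 0.973), *KCMF1* (0.968) and *TCEA1*, a transcription elongation factor (0.967). *XPOT* went from 288 CPM in the 24-h controls to 597 CPM at 30 µg/cm2 and from 652 CPM in the daily controls to 793 CPM with daily PM2.5, group means in the same order as those of *TSLP*. *CSF3* was most like *SLC5A6*, a vitamin transporter (0.978), *RPF2*, a ribosome assembly factor (0.971), and *TRAP1*, a mitochondrial chaperone (0.969). *RPF2* had 75.7 CPM in the 24-h controls, 58.7 at 1 µg/cm2, 119 at 30 µg/cm2 and 39.6 in the daily controls. *CSF1* was most like *HSPA2* (0.950), *ZDHHC3* (0.947) and *TFPI*, the inhibitor of the tissue factor pathway (0.947), which had 115 CPM in the 24-h controls and 52.0 CPM with daily PM2.5. *IL7* was most like *METTL15* (0.927), *USPL1* (0.921) and *MARS2* (0.902). *IL7R* and *CSF2* had mean levels under 1 CPM and were not compared.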
